A study of Mus musculus with 6 samples.

Results

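The 10 genes described here belong to the bone morphogenetic protein (BMP) pathway. They are the ligand genes Bmp2, Bmp4 and Bmp7, the antagonist gene Grem1, the target genes Id1, Id2 and Id3, and the inhibitory target genes Smad6, Smad7 and Bambi. They were chosen by symbol from the 20033 genes of the deposited expression table, each matched 1 row, and 9 of the 10 passed the filter on low values. RNA was sequenced from E12.5 male mouse mesonephroi, 3 of them labelled knockout for Wnt9b and 3 labelled control, each from its own mouse. The design text calls the knockout global, that is, not restricted to the duct or another cell type. The genotype field calls the controls heterozygous, whereas the design text gives them as Wnt9b+/+, and they are called controls here. No treatment is named for either group, and litter and batch are not given.

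BMPs are secreted dimers that bind pairs of serine/threonine kinase receptors, which phosphorylate SMAD1, SMAD5 and SMAD9. These join SMAD4 and enter the nucleus, where the Id genes are among the most direct targets. SMAD6, SMAD7 and the decoy receptor BAMBI are induced as well and dampen the signal. In the embryonic urogenital tract, Bmp4 is expressed in the mesenchyme around the Wolffian duct and restrains budding from it, gremlin 1 binds BMPs and relieves that restraint, and Bmp7 supports nephron progenitors.

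SMADs bind short DNA elements, GTCT (AGAC on the other strand), its palindrome GTCTAGAC and the GC-rich GGCGCC. Because Id2, Id3 and Smad6 had the smallest p-values among the members, the sequence around their start sites is shown. The RefSeq promoter table held 5 of the 10 members, these 3 with Bmp4 and Grem1. Each line runs 5′ to 3′ on the gene's strand from 250 bases before the start to 30 bases after it, on build GRCm38.p6, and capitals mark matches to the 3 elements on either strand. The windows are chr12:25096063-25096342 on the minus strand for Id2, chr4:136143572-136143851 on the plus strand for Id3 and chr9:64022030-64022309 on the minus strand for Smad6. The expression values were made on another build, GRCm39, so no position links the values to these windows.
Id2: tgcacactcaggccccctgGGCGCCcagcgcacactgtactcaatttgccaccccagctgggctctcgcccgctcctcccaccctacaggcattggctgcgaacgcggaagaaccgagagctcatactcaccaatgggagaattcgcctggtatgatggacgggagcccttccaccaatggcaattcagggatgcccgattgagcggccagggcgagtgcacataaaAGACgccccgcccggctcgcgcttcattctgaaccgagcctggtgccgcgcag
Id3: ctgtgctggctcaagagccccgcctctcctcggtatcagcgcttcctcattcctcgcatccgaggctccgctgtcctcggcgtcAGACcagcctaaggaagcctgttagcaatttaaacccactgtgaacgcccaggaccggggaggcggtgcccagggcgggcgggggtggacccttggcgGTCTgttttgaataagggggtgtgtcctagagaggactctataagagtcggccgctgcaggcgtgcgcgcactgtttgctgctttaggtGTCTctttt
Smad6: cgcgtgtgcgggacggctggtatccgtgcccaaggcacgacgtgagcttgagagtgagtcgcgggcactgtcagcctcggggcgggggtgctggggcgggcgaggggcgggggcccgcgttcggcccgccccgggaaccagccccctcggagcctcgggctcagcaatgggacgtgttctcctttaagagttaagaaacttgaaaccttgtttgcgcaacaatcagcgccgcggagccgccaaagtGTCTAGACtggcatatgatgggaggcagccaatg

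Id2 held 1 GGCGCC, from position -231 to -226, where the first base of the gene is 1 and the base before it is -1. It also held 1 GTCT element, and Id3 held 3 GTCT elements and no GGCGCC. In Smad6 the palindrome GTCTAGAC lay across the start site, from position -4 to 4, and the 2 GTCT elements counted there are its arms. Grem1 had 6 GTCT elements and 1 GGCGCC, and Bmp4 had 1 GTCT. Of 32851 promoter windows of 280 bases, 86.2% held GTCT, 10.9% held GGCGCC and 0.192% held GTCTAGAC. GTCT is therefore frequent in such windows, with a median count of 2 and a 90th percentile of 4, and the palindrome is rare. The 5 windows of the members were richer in G and C, from 60.7% in Id3 to 71.1% in Grem1, where the median of all windows was 52.5%. The share given for the GC-rich GGCGCC is therefore not that of windows of like composition. A match describes the letters and is not a binding site.

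None of the 9 tested members differed between knockouts and controls in limma's test on log2(TPM + 1), where TPM is a level normalised for gene length and library size, at an adjusted p under 0.05 over 17577 genes (0 higher, 0 lower). Over all genes tested, 0.444% passed. At an unadjusted p under 0.05, 3 members were higher in the knockouts (Smad6, Id2 and Id3) and 0 were lower, where 5.35% of all tested genes were higher and 5.92% lower. The authors' deposited table marks 0 of the 10 members at an adjusted p under 0.05, and 3.68% of the tested genes to which it gives an adjusted p. The median log2 difference of knockout minus control was 0.16 over the 9 tested members and -0.0075 over all tested genes, and 7 members had a positive difference. Over all 17577 tested genes, 8476 differences were positive and 9101 negative. The members and the lists used here were chosen with results of these data known, so these counts are a description.

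Wnt9b itself had 23.4, 19.2 and 19.0 TPM in the knockouts, against 24.9, 26.4 and 34.0 TPM in the controls, which is -0.44 on the log2 scale (SE 0.14; limma adjusted p = 0.266). The authors' deposited table gives it an adjusted p of 0.0263. The part of the gene that was deleted is not given in the sources used here, and which part of the locus the reads came from was not tested, so these values do not check the labels.

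**Figure D1:**
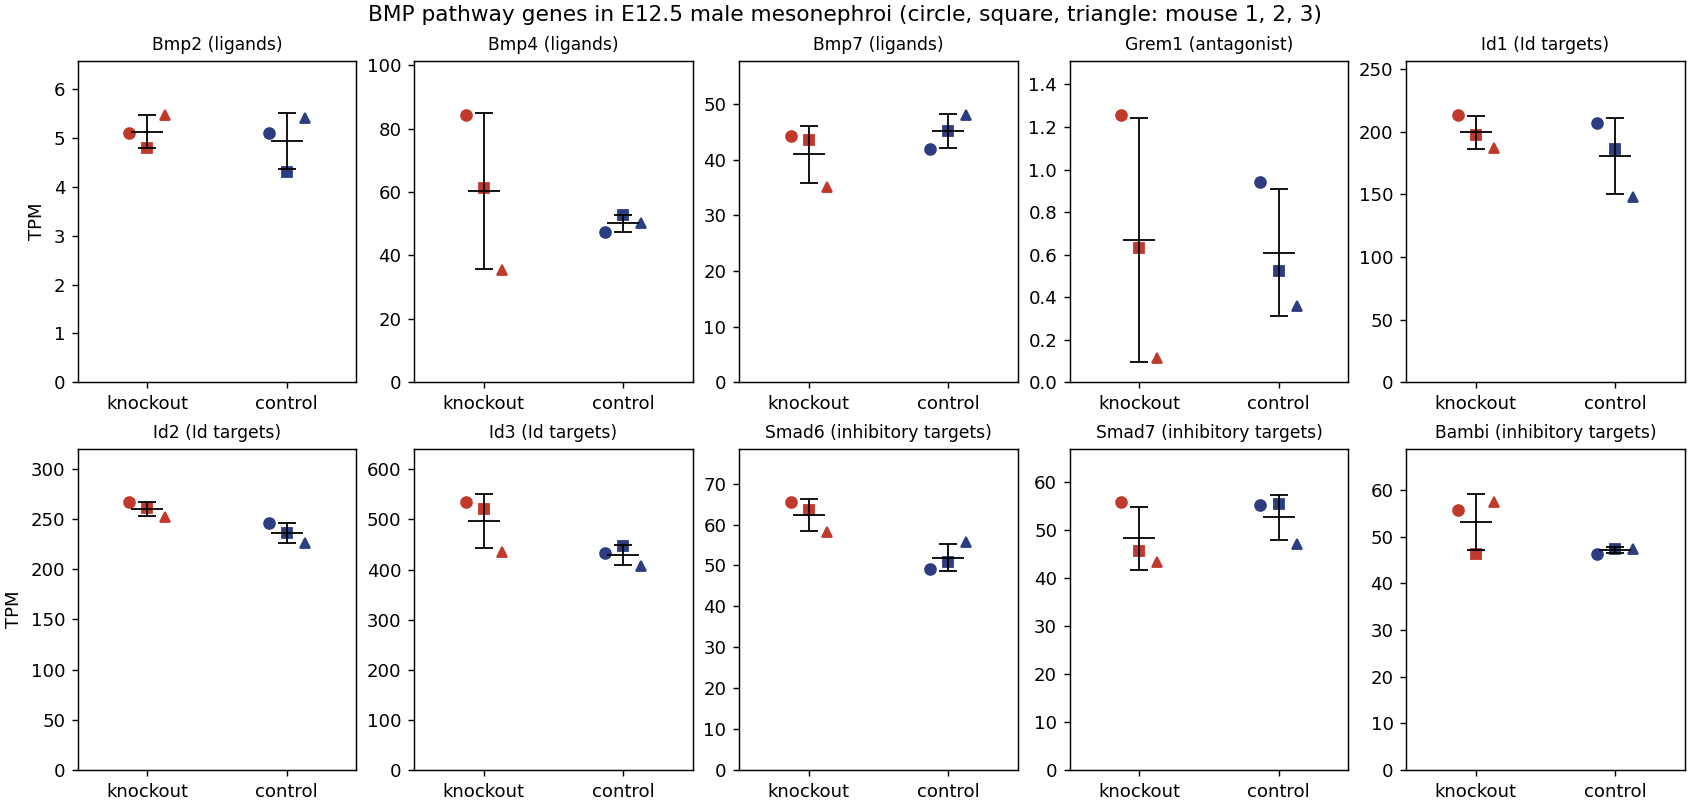
TPM (vertical axes, from 0, scaled per gene) of the 10 BMP pathway genes in the 3 knockout and 3 control libraries; symbols are single mice and the bar with whiskers is the mean ± SD. The knockout values of Id2 and Smad6 lie above every control value, and the knockout values of Bmp4 run from 35.3 to 84.4 TPM around the controls.

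Among the ligands, Bmp4 had the widest relative spread (highest over lowest value) in the knockouts and the narrowest in the controls. Bmp4 (ENSMUSG00000021835) had 84.4, 61.3 and 35.3 TPM in knockouts 1, 2 and 3, against 47.4, 52.9 and 50.2 TPM in controls 1, 2 and 3. Knockouts 1 and 2 lay above every control and knockout 3 below every control. The log2 difference was 0.18 (SE 0.26, 95% interval -0.42 to 0.78; limma adjusted p = 0.854). It was -0.10 without knockout 1 and 0.51 without knockout 3, and it stayed positive in every omission other than that of knockout 1. The highest knockout value was 2.39 times the lowest, a spread reached in the knockouts by 1.37% of the 10676 genes whose mean was 10 TPM or more. The same ratio was 1.12 in the controls, reached by 60.3% of those genes.

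Bmp7 (ENSMUSG00000008999), whose product supports survival of nephron progenitors, had 44.2, 43.5 and 35.1 TPM in the knockouts, against 41.9, 45.2 and 48.1 TPM in the controls. The groups overlapped, and knockout 3 was again the lowest of the 6 libraries. Its log2 difference was -0.14 (SE 0.11, 95% interval -0.38 to 0.10; limma adjusted p = 0.687). Bmp2 (ENSMUSG00000027358), a close relative of Bmp4, was the least abundant of the 3 ligands, with 5.11, 4.79 and 5.47 TPM in the knockouts, against 5.09, 4.29 and 5.40 TPM in the controls. These ranges nearly coincided, with a log2 difference of 0.050 (SE 0.15, 95% interval -0.30 to 0.40; limma adjusted p = 0.935). Without control 2 that difference was -0.029.

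Grem1 (ENSMUSG00000074934), the antagonist, had 1.26, 0.632 and 0.115 TPM in the knockouts, against 0.942, 0.525 and 0.361 TPM in the controls. Only 1 library reached 1 TPM, so the gene lay under the filter and was not tested with the others. The groups overlapped over the whole control range, and in the authors' deposited table its log2 fold change is 0.14 and its adjusted p 0.975. Its TPM was 0.949 ± 0.587% of that of Bmp4 in the knockouts and 1.23 ± 0.668% in the controls (SD, n = 3 each). At this level, the antagonist transcript was far less abundant per length than that of the ligand it binds in all 6 libraries.

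The Id genes encode small helix-loop-helix proteins without a DNA-binding region, which hold E proteins off DNA. They were the most abundant members, in the order Id3, Id2 and Id1 in every library, with no overlap between neighbours in that order. Id3 (ENSMUSG00000007872) had 534, 520.1 and 435 TPM in the knockouts, against 433, 447 and 407 TPM in the controls. Knockouts 1 and 2 lay above every control, and knockout 3 lay within the control range. The log2 difference was 0.21 (SE 0.087, 95% interval 0.0064 to 0.40; limma adjusted p = 0.427).

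Id2 (ENSMUSG00000020644), a family member that also binds retinoblastoma proteins, had 267, 260.5 and 252 TPM in the knockouts, against 246, 236 and 226 TPM in the controls. All 3 knockouts lay above all 3 controls. The difference was small, 0.14 on the log2 scale (SE 0.058, 95% interval 0.0065 to 0.27; limma adjusted p = 0.421). Id1 (ENSMUSG00000042745), a commonly used readout of BMP signalling, had 214, 198 and 187 TPM in the knockouts, against 207, 186 and 148 TPM in the controls. Its groups overlapped, and the log2 difference was 0.16 (SE 0.12, 95% interval -0.12 to 0.43; limma adjusted p = 0.688). Without control 3, the lowest library, it was 0.020.

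Among the inhibitory targets, Smad6 (ENSMUSG00000036867), whose product acts mainly on BMP receptors and SMAD1, had 65.5, 63.5 and 58.1 TPM in the knockouts, against 49.2, 51.0 and 55.7 TPM in the controls. All 3 knockouts lay above all 3 controls, although knockout 3 exceeded control 3 by little. Its log2 difference of 0.26 (SE 0.080, 95% interval 0.076 to 0.44) had the smallest p of the members and still did not pass over all genes (unadjusted p = 0.0114; limma adjusted p = 0.259). In the authors' deposited table the log2 fold change of Smad6 is 0.27 and its adjusted p 0.104, also the smallest among the 10. Smad6 and Id2 were the 2 of the 9 tested members whose groups did not overlap, both higher in the knockouts, where 8.14% of all tested genes were higher and 8.49% lower without overlap (16.6% in either direction).

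Smad7 (ENSMUSG00000025880), whose product inhibits both BMP and transforming growth factor beta (TGF-beta) receptors, had 55.9, 45.7 and 43.5 TPM in the knockouts, against 55.4, 55.6 and 47.3 TPM in the controls. Knockouts 2 and 3 lay below every control and knockout 1 above every control. The log2 difference was -0.13 (SE 0.11, 95% interval -0.38 to 0.13; limma adjusted p = 0.736), opposite in sign to that of Smad6. Bambi (ENSMUSG00000024232), which encodes a receptor-like protein without a kinase domain, had 55.7, 46.3 and 57.4 TPM in the knockouts, against 46.3, 47.5 and 47.5 TPM in the controls. Knockouts 1 and 3 were above every control and knockout 2 was level with the lowest one. Its log2 difference was 0.17 (SE 0.092, 95% interval -0.046 to 0.38; limma adjusted p = 0.572).

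**Figure D2:**
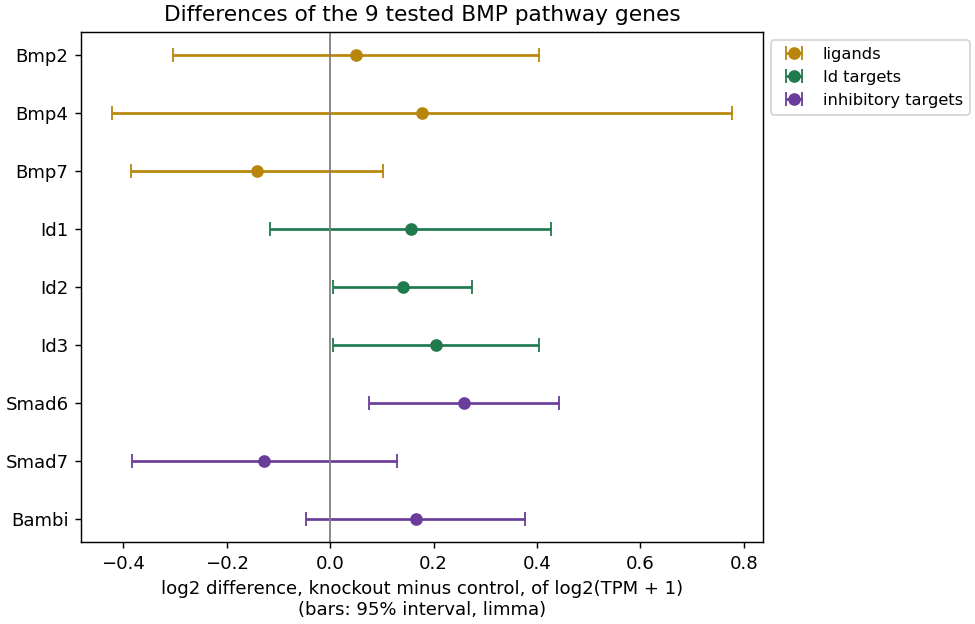
Log2 difference of knockout minus control (horizontal axis, log2(TPM + 1) scale) of the 9 tested members, with limma's 95% intervals, which are not adjusted for the number of genes. The intervals of Id2, Id3 and Smad6 lie above 0 and those of the other 6 members include 0.

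The upper bounds of these intervals describe the precision of each estimate, gene by gene and without adjustment for the number of genes. For the 6 target genes they ran from 0.13 for Smad7 to 0.44 for Smad6, and the lower bounds from -0.38 for Smad7 to 0.076 for Smad6. For Bmp4 the interval reached from -0.42 to 0.78, so this ligand was the least well determined of the tested members. A p that misses the threshold does not show that the levels were equal.

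Set against each other, ligands and targets were as follows. Bmp2, Bmp4 and Bmp7 summed to 134, 109.5 and 75.9 TPM in the knockouts, against 94.4, 102 and 104 TPM in the controls, so the knockouts lay on both sides of the controls. Id1, Id2 and Id3 summed to 1015, 978 and 874 TPM in the knockouts, against 886, 869 and 781 TPM in the controls, and knockout 3 lay between controls 1 and 2. Smad6, Smad7 and Bambi summed to 177, 156 and 159 TPM in the knockouts, against 151, 154 and 150.4 TPM in the controls. That sum was above every control in all 3 knockouts.

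The Id sum was 7.59, 8.93 and 11.5 times the ligand sum in knockouts 1, 2 and 3, against 9.38, 8.49 and 7.53 times in controls 1, 2 and 3. The mean was 9.35 ± 2.00 in the knockouts and 8.47 ± 0.924 in the controls (SD, n = 3 each), so the difference of 0.881 was smaller than the spread within either group. Without knockout 3 the knockout mean was 8.26, below that of the controls. The highest ratio belonged to knockout 3, the library with the lowest ligand sum. That sum leaves out 8 other BMP and growth differentiation factor ligand genes. These summed to 92.1, 110.4 and 114 TPM in knockouts 1, 2 and 3, against 107, 117 and 109 TPM in controls 1, 2 and 3. From knockout 1 to knockout 3 they rose, where the sum of Bmp2, Bmp4 and Bmp7 fell, so the ratios hold for those 3 ligands only. Of the Id sum, Id3 made up 51.8 ± 1.86% in the knockouts and 50.8 ± 1.73% in the controls, so the balance among the 3 Id genes also differed by less than its spread. Bmp4 made up 55.2 ± 8.31% of the ligand sum in the knockouts and 50.1 ± 1.63% in the controls.

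**Figure D3:**
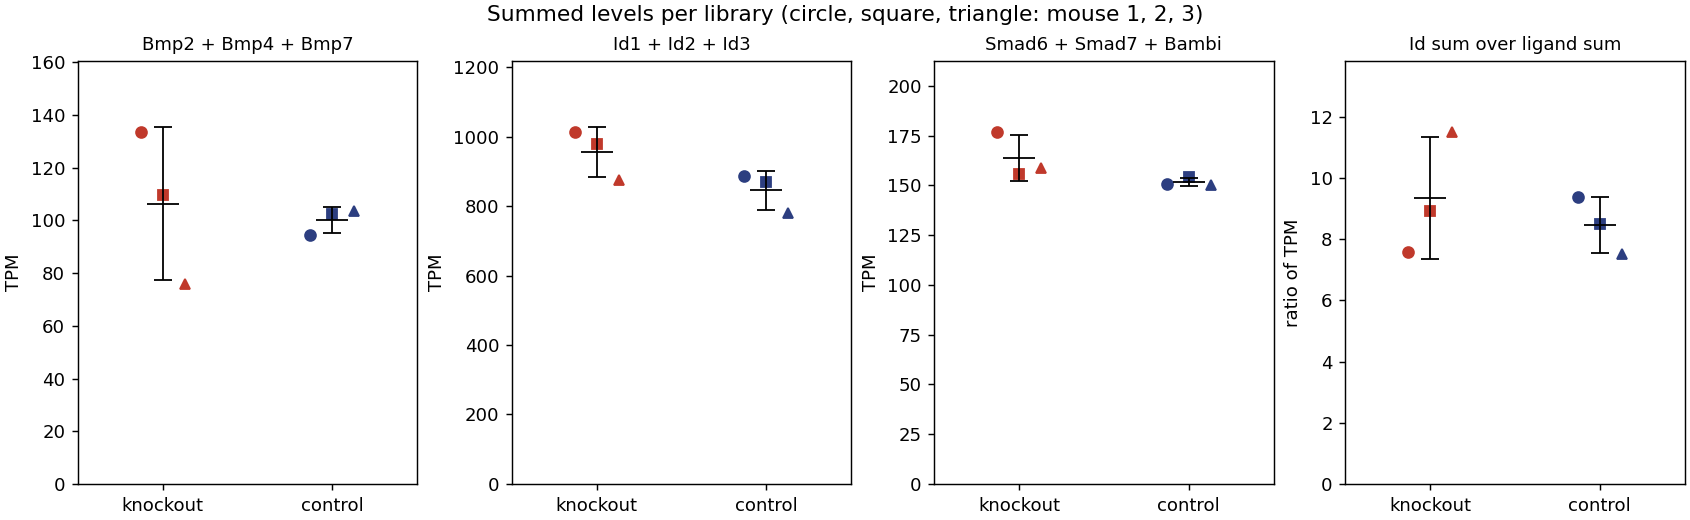
Summed TPM of the ligands, of the Id genes and of the inhibitory targets, and the ratio of the Id sum to the ligand sum (vertical axes, from 0), per library; symbols are single mice and the bar with whiskers is the mean ± SD. The ligand sum spans 75.9 to 134 TPM in the knockouts and 94.4 to 104 TPM in the controls.

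Knockout 1 was the highest of the 6 libraries for 7 of the 10 members, and knockout 3 the lowest for 4, namely Bmp4, Bmp7, Grem1 and Smad7. Within the knockouts, 8 of the 10 members were highest in knockout 1 and lowest in knockout 3, the exceptions being Bmp2 and Bambi, and 17.0% of all tested genes had that order. Marker genes of other cells varied in the same libraries. The 10 genes of gonadal somatic cells summed to 273, 225 and 172 TPM in knockouts 1, 2 and 3, against 128, 108 and 111 TPM in controls 1, 2 and 3. Of the 9 tested, 6 had a positive and 3 a negative log2 difference. Limma called 4 of them higher, Nr5a1 and Gata4 among these, and 0 lower. The count of limma calls was 0 without control 3 and 5 without knockout 3, and the authors' deposited table marks 4 of the 9 tested. The 7 germ cell genes summed to 57.2, 32.2 and 13.8 TPM in the knockouts, against 31.8, 8.34 and 9.79 TPM in the controls. All 6 tested had a positive log2 difference, with a median of 0.72. None of the 6 passed limma (1 was higher at an unadjusted p under 0.05, and the authors' deposited table marks 0). Their part in the values of the members was not tested.

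Id1, Id3, Smad6 and Smad7 are also well expressed in endothelium, whose part in the values of these members was not tested. The 10 endothelial genes, among them Cdh5 and Kdr, summed to 430 to 472 TPM in the knockouts and 508 to 548 TPM in the controls. All 10 had a negative log2 difference, as did 9101 of all 17577 tested genes, and the median of the 10 was -0.25. Of the 10, 0 passed limma over all genes (4 were lower at an unadjusted p under 0.05, and the authors' deposited table marks 2). Fewer cells of a type and less RNA per cell cannot be told apart in such bulk samples. Markers of the labelled tissue were present in every library, with 10 epithelial genes of the duct and tubules summing to 726 to 796 TPM in the knockouts and 864 to 898 TPM in the controls. Of those 10, 3 had a positive and 7 a negative log2 difference, and 1 was called lower (Lhx1) and 0 higher. The 9 mesenchymal genes summed to 2455 to 2620 TPM in the knockouts and 2573 to 2872 TPM in the controls, with 1 called higher (Tcf21) and 1 lower (Pdgfrb). Of the 9, 6 had a positive and 3 a negative log2 difference, with a median of 0.030. Most of that sum came from Col1a1 and Col3a1, which averaged 805 and 857 TPM in the knockouts and 789 and 1074 TPM in the controls. The call of Lhx1 was lost without knockout 2 and without each control, and both mesenchymal calls were lost without knockout 1, knockout 2, control 2 or control 3. Without control 1, 1 mesenchymal gene was called, and without knockout 3, 5 were. The authors' deposited table marks 2 of the duct and tubule genes and 4 of the mesenchymal genes. Its adjusted p is 3.06e-15 for Lhx1, 7.08e-10 for Tcf21 and 8.05e-14 for Pdgfrb. Erythroid genes summed to 16316 to 18264 TPM in the knockouts and 13063 to 17297 TPM in the controls, and macrophage genes to 97.3 to 121 TPM in the knockouts and 96.2 to 137 TPM in the controls. The summed level was 11.0 to 18.8 TPM in the knockouts and 6.54 to 8.65 TPM in the controls for 4 steroidogenic genes, of which Cyp17a1 and Hsd3b1 were at 0 in control 3. Podocyte genes summed to 233 to 295 TPM in the knockouts and 226 to 286 TPM in the controls, and genes of neural crest and glia to 31.4 to 46.4 TPM in the knockouts and 25.6 to 32.2 TPM in the controls. In the erythroid, macrophage, steroidogenic, podocyte and neural crest lists, 0 genes passed limma. At an unadjusted p under 0.05 there were 1, 0, 1, 0 and 2, in that order. Positive log2 differences numbered 8, 0, 2, 2 and 5 in these lists, and negative ones 1, 6, 0, 1 and 1. The macrophage genes tested were thus all on the lower side, like the endothelial ones. The authors' deposited table marks 0, 0, 0, 0 and 2 of the tested genes in these lists. Cyp17a1 lay under the filter and was not tested here, but the authors' deposited table marks it too (adjusted p = 0.000734). Its levels were 2.75, 1.68 and 0.129 TPM in knockouts 1, 2 and 3, against 0.0742, 0.0437 and 0 TPM in controls 1, 2 and 3.

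The rest of the pathway was followed in lists around the members. Of 7 tested genes among the other BMP and growth differentiation factor ligands, 0 passed limma (at an unadjusted p under 0.05, 2 higher and 1 lower; the authors' deposited table marks 3), with a median of 0.15. Gdf10, a BMP3-like ligand and the most abundant of them, had 38.6, 56.8 and 58.4 TPM in the knockouts, against 66.5, 72.6 and 68.6 TPM in the controls, and all knockouts lay below the controls. Gdf6, a ligand of joints and the eye, was the second, with 31.4, 31.6 and 30.7 TPM in the knockouts, against 23.0, 26.2 and 23.5 TPM in the controls, all knockouts above the controls. Their log2 differences were -0.45 (SE 0.15) and 0.36 (SE 0.086; limma adjusted p = 0.288 and 0.158). Bmp6, which signals through the same receptors as Bmp7, averaged 11.1 ± 0.725 TPM in the knockouts and 7.77 ± 1.12 TPM in the controls (limma adjusted p = 0.251). The authors' deposited table gives Gdf10, Gdf6 and Bmp6 adjusted p-values of 0.0254, 0.0257 and 0.0499.

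Receptor genes lay mostly on the lower side, where 9101 of all 17577 tested genes also lay. Of 10 tested receptor and co-receptor genes, 9 had a negative log2 difference and the median was -0.14, but 0 passed limma (at an unadjusted p under 0.05, 0 higher and 2 lower; the authors' deposited table marks 2). Bmpr1a, the type I receptor with the highest level, had 108, 108 and 134 TPM in the knockouts, against 121, 126 and 131 TPM in the controls, with overlap. Bmpr1b, another type I receptor, averaged 12.0 ± 2.27 TPM in the knockouts and 17.1 ± 2.30 TPM in the controls, and the groups did not overlap (log2 difference -0.48, SE 0.16; limma adjusted p = 0.298). Eng, the co-receptor endoglin of endothelial cells, had 63.6, 69.7 and 63.1 TPM in the knockouts, against 100.4, 83.5 and 87.5 TPM in the controls. Its log2 difference of -0.46 (SE 0.086; limma adjusted p = 0.0799) went with the lower endothelial sum given above, whose part in it was not tested. In the authors' deposited table the adjusted p is 0.000589 for Eng and 0.0214 for Bmpr1b.

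Secreted modulators other than Grem1 had log2 differences of both signs. Of 14 tested, 0 passed limma (at an unadjusted p under 0.05, 1 higher and 2 lower; the authors' deposited table marks 3), with a median of -0.066. Fstl1 and Bmp1, the most abundant, had log2 differences of -0.13 and -0.029. Bmper, which encodes a secreted BMP-binding protein, averaged 24.8 ± 0.672 TPM in the knockouts and 17.3 ± 1.60 TPM in the controls (log2 difference 0.50, SE 0.099; limma adjusted p = 0.0976). Nbl1, an antagonist of the DAN family that also holds gremlin, averaged 121 ± 12.9 TPM in the knockouts and 152 ± 8.68 TPM in the controls (limma adjusted p = 0.187). The activin and BMP antagonist follistatin, Fst, averaged 3.05 ± 0.890 TPM in the knockouts and 5.69 ± 1.72 TPM in the controls (limma adjusted p = 0.319). Those 3 genes are the ones of the tested 14 that the authors' deposited table marks, with adjusted p-values of 0.000282 for Bmper, 0.0379 for Nbl1 and 0.0426 for Fst. Noggin, Nog, had 10.8, 5.48 and 1.55 TPM in knockouts 1, 2 and 3, against 6.85, 3.86 and 4.56 TPM in controls 1, 2 and 3. As with Bmp4 and Grem1, knockout 1 was the highest and knockout 3 the lowest of the 6 libraries.

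Of 11 tested Smad genes and their partners, 0 passed limma (at an unadjusted p under 0.05, 0 higher and 2 lower; the authors' deposited table marks 0), with a median of -0.057. Smad5, the most abundant signal transducer of the BMP branch, averaged 208 ± 28.3 TPM in the knockouts and 249 ± 19.3 TPM in the controls (log2 difference -0.27, SE 0.10; limma adjusted p = 0.377). Ski, a corepressor of Smads, averaged 148 ± 10.8 TPM in the knockouts and 156 ± 14.9 TPM in the controls. Of 9 further BMP target genes, 0 passed limma (at an unadjusted p under 0.05, 2 higher and 0 lower; the authors' deposited table marks 1), with a median of 0.027. Atoh8, a helix-loop-helix gene induced by BMP in endothelium and liver, had 30.6, 31.0 and 30.7 TPM in the knockouts, against 23.1, 27.8 and 26.6 TPM in the controls, without overlap (limma adjusted p = 0.362). Hey1, a transcriptional repressor gene shared with the Notch pathway, averaged 23.5 ± 2.51 TPM in the knockouts and 16.4 ± 2.12 TPM in the controls (limma adjusted p = 0.176; 0.0213 in the authors' deposited table). Gata2, the most abundant of that list, had 255, 205 and 147 TPM in knockouts 1, 2 and 3, against 186, 210.2 and 234 TPM in the controls, which is the order of knockouts seen for Bmp4.

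The genes of the E proteins that Id proteins bind had differences of both signs. Tcf3 averaged 351 ± 42.3 TPM in the knockouts and 309 ± 22.5 TPM in the controls, with overlap. Tcf12 averaged 93.0 ± 6.96 TPM in the knockouts and 115 ± 7.96 TPM in the controls, and Tcf4 25.4 ± 1.11 TPM in the knockouts and 33.0 ± 0.278 TPM in the controls, both without overlap. The log2 differences were 0.18, -0.30 and -0.36 (SE 0.098, 0.081 and 0.078; limma adjusted p = 0.572, 0.193 and 0.119). Thus 0 of 3 passed limma (at an unadjusted p under 0.05, 0 higher and 2 lower; the authors' deposited table marks 2, with adjusted p-values of 0.00350 for Tcf12 and 2.46e-05 for Tcf4).

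The TGF-beta branch, which shares Smad4 and Smad7 with BMP, held the only limma call among the pathway lists. Of 10 tested genes, 0 were higher, 1 was lower (Tgfbi) and 9 did not pass limma, with a median of -0.25. At an unadjusted p under 0.05, 0 were higher and 3 lower, and the authors' deposited table marks 2. Tgfbi, a secreted matrix protein gene induced by TGF-beta, had 592, 631 and 674 TPM in the knockouts, against 899, 975 and 984 TPM in the controls (log2 difference -0.59, SE 0.070; limma adjusted p = 0.0156). That call was lost without knockout 1 or 2, without control 2 or 3, without the variance trend and with mouse number as a replicate block. In the authors' deposited table the adjusted p of Tgfbi is 2.56e-14. Tgfbr1, a type I receptor gene, averaged 112 ± 11.5 TPM in the knockouts and 115 ± 3.73 TPM in the controls. Tgfbr2, its partner receptor, averaged 28.8 ± 3.84 TPM in the knockouts and 41.0 ± 2.84 TPM in the controls without overlap (limma adjusted p = 0.126; 0.000105 in the authors' deposited table).

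**Figure D4:**
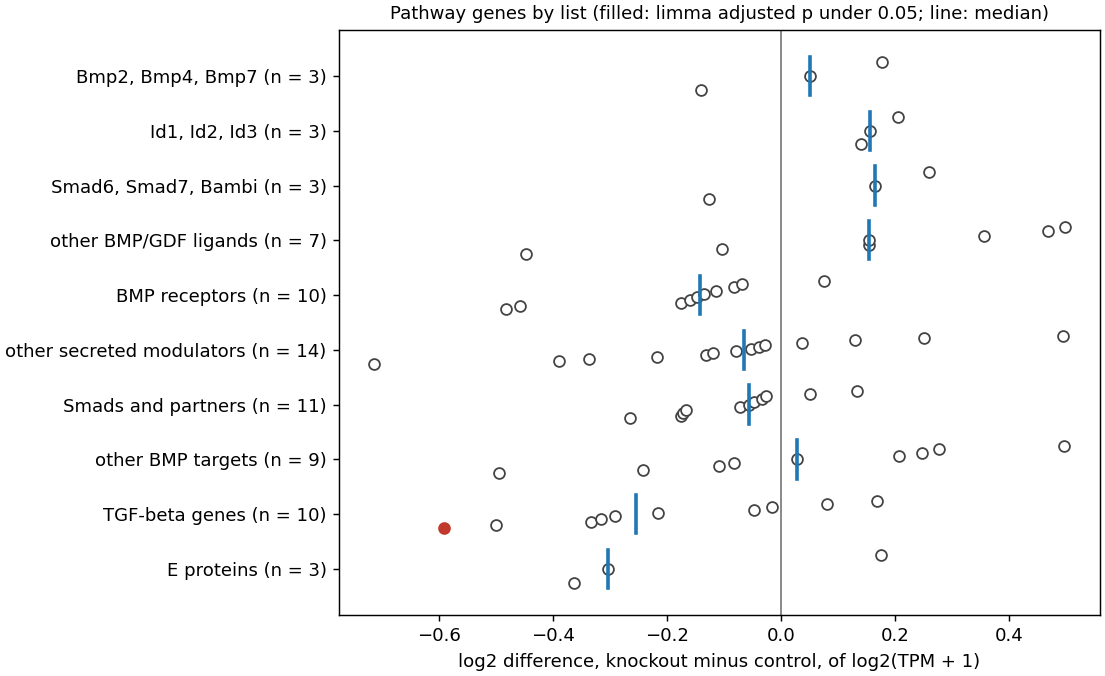
Log2 difference of knockout minus control (horizontal axis, log2(TPM + 1) scale) of each tested gene in 10 lists of pathway genes; circles are genes, the line is the list's median and the filled circle passed limma at an adjusted p under 0.05. Tgfbi is the one filled circle, at -0.59, and the receptor list has 9 of 10 genes below 0.

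Leaving out each library in turn showed which members kept their sign. Smad6 stayed between 0.22 and 0.31, Id3 between 0.15 and 0.30, Id2 between 0.11 and 0.17 and Bambi between 0.11 and 0.26 on the log2 scale. Id1 ran from 0.020 to 0.26, Bmp7 from -0.20 to -0.037 and Smad7 from -0.23 to -0.056. Bmp4, from -0.10 to 0.51, and Bmp2, from -0.029 to 0.11, changed sign. None of the 9 passed limma in any of these 6 omissions, in which the lowest adjusted p was 0.0752, for Id3 without knockout 3.

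**Figure D5:**
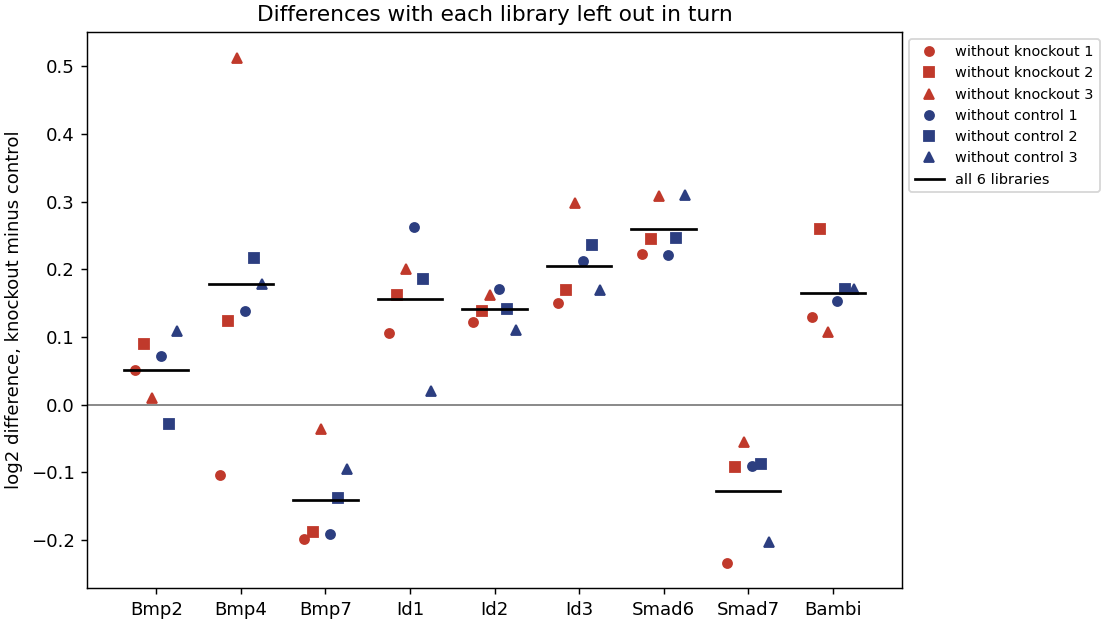
Log2 difference of knockout minus control (vertical axis, log2(TPM + 1) scale) of the 9 tested members with 1 library left out at a time (symbols) and with all 6 libraries (black lines). Bmp4 moves from -0.10 without knockout 1 to 0.51 without knockout 3, whereas Smad6 stays between 0.22 and 0.31.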

How the data were processed

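Poly(A) RNA of 6 mesonephroi was sequenced in read pairs of 150 bases, per the labels' protocols, and GRCm39 and DESeq2 are named in the submitters' processing notes; not given in the sources used here are aligner, counter and strand setting. The authors deposited 1 TPM column per library (per the file headers), with their own log2 fold change of knockout over control, p-value and adjusted p-value, which are quoted only where named. TPM keeps no read depth, so numbers of reads, counting intervals and detection floors are not given. Libraries were grouped by their titles.

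Differences were tested with limma (3.58.1, under R 4.3.3) by fitting genotype alone to log2(TPM + 1), with its trend of variance on level. The 17577 genes that reached 1 TPM in 3 or more libraries were tested, p-values were adjusted by the Benjamini-Hochberg procedure over all of them, and the threshold was 0.05. Fold changes on this scale understate those of low genes. The steps were tested on simulated data. The alternatives were median-ratio and upper-quartile scaling, no filter, a pseudocount of 0.1, no variance trend, a replicate block and leaving out each library.

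The members and lists were chosen with earlier results of these data known. All members were named, and from each pathway list the genes past the test and the 2 of highest mean TPM; some genes are not reported here. Bmp6, Bmpr1b, Bmper, Nbl1, Fst, Nog, Hey1, Tcf4 and Tgfbr2 are not covered by that rule and were chosen with their values in view, as were the promoters shown and the marker genes Cdh5, Kdr, Cyp17a1, Hsd3b1, Nr5a1 and Gata4. Promoter windows come from RefSeq's table for GRCm38.p6.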

Additional observations from a re-analysis of the deposited data

How the results depend on the processing

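The count of 0 members called held under every alternative, and scaling shifted the median of all genes by at most 0.0082 on the log2 scale. Of the 9 tested members, 7 kept their sign throughout; with single libraries left out, Bmp4 ran from -0.10 (without knockout 1) to 0.51 (without knockout 3) and Bmp2 from -0.029 (without control 2) to 0.11 (without control 3), and the cause was not tested. Without a filter Grem1 could be fitted, with a log2 difference of 0.0093 (limma adjusted p = 0.994).

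The count of all genes called, 78, was 28 without the variance trend and 17 with mouse number as a replicate block, and ran from 13 to 243 when single libraries were left out (13 without control 2, 243 without knockout 3). Same-numbered mice had correlations of -0.064, 0.050 and -0.051 between their deviations from the group means, so the numbers were not taken to pair the mice. Without the trend, and likewise with the replicate block, the TGF-beta and mesenchyme lists had 0 calls; the gonadal list had 1 without the trend and 2 with the block. Leaving out libraries gave 0 to 1 calls in the TGF-beta, duct, endothelium and neural crest lists, 0 to 5 in the mesenchyme list and 0 to 5 in the gonadal list; the cause was not tested. The order of the group means of both ratios turned on single libraries. Without knockout 3 the Id to ligand ratio was 8.26 in the knockouts and 8.47 in the controls. The Grem1 to Bmp4 ratio was 1.26% in the knockouts and 1.23% in the controls without knockout 3, and 0.949% in the knockouts and 0.856% in the controls without control 1. With 3 mice a group, changes of the size seen in the members are not resolved over all genes tested. That includes Id2, Id3 and Smad6, whose unadjusted intervals lay above 0.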
